A study of Mus musculus with 12 samples.

Results

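Glp1r, Gipr, Gcgr and Ffar1 encode G protein-coupled receptors through which gut hormones, glucagon and fatty acids act on pancreatic beta cells. Rapgef4 encodes a cAMP effector that acts downstream of the receptors that raise cAMP. These 5 genes were taken by name. Glp1r, Gipr, Ffar1 and Rapgef4, 4 of the 5, had a row among the 12643 genes with counts. Gcgr, the glucagon receptor gene, had none and is not analysed here. Each gene was represented by its RefSeq transcript with the highest total count.

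RNA came from MIN6 cells, an insulin-producing line from a mouse insulinoma that is widely used as a model of beta cells. Cells at passage 29 received an siRNA against Pdx1 or a control siRNA called NT by AMAXA nucleofection, and were harvested 72 h later. Translating ribosome affinity purification (TRAP), in which tagged ribosomes are pulled down with the mRNAs they carry, gave an IP fraction and a total RNA fraction. The 4 groups were Pdx1 siRNA IP RNA, NT siRNA IP RNA, Pdx1 siRNA total RNA and NT siRNA total RNA, with 3 libraries each. All 4 share the MIN6 background and the nucleofection. Which ribosomal protein carried the tag, and whether every cell carried it, is not stated in the labels. The labels do not say that replicates were separate cultures, so the p-values speak for the spread among these libraries alone, which can be technical.

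GLP-1 receptor, GIP receptor and glucagon receptor are class B receptors that couple mainly to Gs, raise cAMP and strengthen glucose-stimulated insulin secretion. The cAMP acts through protein kinase A and through Epac2, the guanine nucleotide exchange factor for Rap encoded by Rapgef4. FFAR1, also called GPR40, binds long-chain fatty acids and signals mainly through Gq and phospholipase C. Pdx1, the depleted factor, is a homeodomain protein that binds sequences with a TAAT core and maintains beta-cell genes.

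Libraries held 29430690 to 45806807 counts over all genes. Levels are CPM, counts divided by library size, with library sizes scaled by TMM, a method that assumes most genes do not change. The TMM factors differed by group, lying at 0.752 to 0.866 in IP RNA with Pdx1 siRNA and 0.984 to 1.01 with NT siRNA, and at 0.9501 to 1.07 in total RNA with Pdx1 siRNA and 1.22 to 1.23 with NT siRNA. Pdx1 itself was 2.42-fold lower with Pdx1 siRNA in IP RNA and 2.29-fold lower in total RNA, with no overlap between libraries in either fraction. All 10 beta-cell markers were measured. Pdx1, the siRNA target, is among them and among those that fell in each count below. In IP RNA, where 59.7% of all genes changed with Pdx1 siRNA, 0 rose and 6 fell. In total RNA, where 53.0% of all genes changed, 1 rose and 4 fell. Without TMM scaling 0 of these markers rose and 9 fell in each fraction. Their summed level was 186027 to 229782 CPM with Pdx1 siRNA, against 205427 to 240043 CPM with NT siRNA, in IP RNA, and 94587 to 100974 CPM with Pdx1 siRNA, against 104858 to 116011 CPM with NT siRNA, in total RNA. Of 10 markers of immune, endothelial and stromal cells 0 had a row, and those are not analysed here. Markers of other islet endocrine cells were measured for 6 of 11 (Gcg, Irx1, Irx2, Gc, Ttr and Ppy), and the others are not analysed here. By their counts, not by any label, NT IP replicate 3 and the 3 Pdx1 siRNA IP libraries stand apart at Rpl32l, a copy of a ribosomal protein gene. Rpl32l had 33, 37 and 22 counts in the Pdx1 siRNA IP libraries, against 1726, 1260 and 29 in the NT IP libraries, and 699 to 1131 counts in total RNA. How many other genes split this way is not reported here. The 4 measured genes have 0% of their transcript matched elsewhere at 95% identity over at least 100 bases.

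Glp1r (NM_021332) lies on the plus strand of chromosome 17 at 30901867 to 30936510, build mm10. Gipr (NM_001080815) lies on the minus strand of chromosome 7 at 19156063 to 19170248, and Ffar1 (NM_194057) on the minus strand of the same chromosome at 30860568 to 30861470, within a single exon. Rapgef4 (NM_001204165) spans 276260 bases of the plus strand of chromosome 2, at 71981215 to 72257474, with 31 exons in the GENCODE model. An opposite-strand gene, Rapgef4os2, overlaps 8.06% of the Rapgef4 exon bases, and whether counting used strand is not given. The exons of the other 3 genes overlap 0% with other genes.

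RefSeq sequence upstream of the start was at hand for 3 of the 4 measured genes, Glp1r, Ffar1 and Rapgef4. A window of 200 bases upstream of the RefSeq start, which leaves out the bases adjoining the start, was searched on both strands for TAAT, the core that homeodomain factors such as Pdx1 bind. TAAT was found 0 times in each of the 3, while 50.12% of the 32851 such windows in the table hold it. GGGCGG, the GC box bound by Sp1-type factors, occurred 3 times in the Glp1r window, 3 times in the Rapgef4 window and 0 times in the Ffar1 window, and 24.64% of all windows hold it. CANNTG, the E-box, was found 0 times for Glp1r, 3 times for Ffar1 and 2 times for Rapgef4, with 59.05% of all windows holding it. The 3 GC boxes of Rapgef4 overlap one another, as do 2 of the 3 of Glp1r. The windows of Glp1r and Rapgef4 are shown because both hold GC boxes. With Pdx1 siRNA, Glp1r was lower in IP RNA and Rapgef4 was higher in total RNA. Neither passed the test in the other fraction, and the Rapgef4 rise was not seen without scaling. They are given 5′ to 3′ on the plus strand of GRCm38.p6, the assembly behind mm10, with GC boxes of either strand in capitals. The Ffar1 window is not shown, since the RefSeq start of Ffar1 is that of its coding exon and the window lies inside the longer GENCODE transcript. These are letter matches only, and no binding was measured.
Glp1r, chr17:30901617-30901816: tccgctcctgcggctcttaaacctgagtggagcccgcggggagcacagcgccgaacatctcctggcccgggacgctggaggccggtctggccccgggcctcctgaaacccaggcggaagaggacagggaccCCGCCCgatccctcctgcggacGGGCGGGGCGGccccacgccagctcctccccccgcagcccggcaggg
Rapgef4, chr2:71980965-71981164: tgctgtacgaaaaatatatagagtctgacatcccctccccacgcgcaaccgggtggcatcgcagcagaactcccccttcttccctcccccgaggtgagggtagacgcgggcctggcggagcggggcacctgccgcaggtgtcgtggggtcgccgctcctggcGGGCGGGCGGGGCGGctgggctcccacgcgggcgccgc

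The first question was how depletion of Pdx1 changed the receptor and effector RNAs, in ribosome-bound and in total RNA. Gipr rose and Ffar1 fell in both fractions. Glp1r fell in IP RNA, and Rapgef4 rose in total RNA. The changes were between 1.22-fold and 1.59-fold in size. The 2 incretin receptor genes therefore moved in opposite directions in IP RNA.

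Glp1r had 19.9, 21.9 and 23.2 CPM in Pdx1 siRNA IP RNA, against 29.4, 33.3 and 33.1 CPM in NT IP RNA. Every Pdx1 siRNA IP library was below every NT IP library. The level averaged 21.7 ± 1.68 CPM with Pdx1 siRNA and 31.9 ± 2.18 CPM with NT siRNA (SD, n = 3 each), a 1.47-fold decrease. The log2 fold change was −0.56 (SE 0.14, adjusted p = 0.003069), by the quasi-likelihood test of edgeR with p-values adjusted over all genes by Benjamini and Hochberg's method. In total RNA Glp1r had 50.6, 79.9 and 78.3 CPM with Pdx1 siRNA, against 73.6, 86.5 and 80.7 CPM with NT siRNA. Replicate 1 with Pdx1 siRNA lay well below the other 5 total RNA libraries, and the groups overlapped. The log2 fold change of −0.20 (SE 0.13, adjusted p = 0.2084, edgeR) did not pass the test, and its 95% interval ran from −0.46 to 0.055. Without Pdx1 siRNA replicate 1 it was −0.02 (adjusted p = 0.8511, edgeR). With library totals alone and no TMM scaling it was −0.49 (adjusted p = 0.002707, edgeR), on a scale that moved the median of all genes by over 0.1, to −0.32.

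Gipr, the receptor for the other incretin, had 49.1, 41.4 and 53.4 CPM in Pdx1 siRNA IP RNA, against 29.3, 29.8 and 31.5 CPM in NT IP RNA. In total RNA it had 43.8, 51.3 and 52.8 CPM with Pdx1 siRNA, against 34.3, 37.5 and 33.1 CPM with NT siRNA. In both fractions every Pdx1 siRNA library lay above every NT library. The level rose 1.59-fold in IP RNA (log2 fold change 0.67, SE 0.10, adjusted p = 3.056e-05, edgeR), to 48.0 ± 6.08 CPM with Pdx1 siRNA, against 30.2 ± 1.16 CPM with NT siRNA (SD, n = 3 each). In total RNA it rose 1.41-fold (0.50, SE 0.10, adjusted p = 0.0004601, edgeR), to 49.3 ± 4.82 CPM with Pdx1 siRNA, against 34.95 ± 2.31 CPM with NT siRNA. Gipr passed the test in the same direction in all 24 alternative settings in each fraction, though these are not all separate checks. The smallest log2 fold changes were 0.35 in IP RNA and 0.22 in total RNA, without scaling.

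Ffar1, the fatty acid receptor gene, had 23.8, 23.9 and 23.3 CPM in Pdx1 siRNA IP RNA, against 33.5, 37.7 and 39.1 CPM in NT IP RNA. The 3 Pdx1 siRNA values were nearly the same and lay below all NT values. Ffar1 fell 1.55-fold in IP RNA (log2 fold change −0.63, SE 0.13, adjusted p = 0.0007425, edgeR), to 23.7 ± 0.318 CPM with Pdx1 siRNA, against 36.8 ± 2.94 CPM with NT siRNA (SD, n = 3 each). In total RNA it had 50.01, 77.3 and 76.4 CPM with Pdx1 siRNA, against 87.0, 99.3 and 87.6 CPM with NT siRNA. Again replicate 1 with Pdx1 siRNA was the low one, but here the groups did not overlap. Ffar1 fell 1.34-fold in total RNA (−0.43, SE 0.13, adjusted p = 0.01033, edgeR), to 67.9 ± 15.5 CPM with Pdx1 siRNA, against 91.3 ± 6.90 CPM with NT siRNA. Without Pdx1 siRNA replicate 1 the value was −0.25 (adjusted p = 0.01631, edgeR), and without NT replicate 2 it was −0.32 and no longer passed (adjusted p = 0.07222, edgeR).

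Rapgef4, which encodes Epac2, had 52.0, 52.3 and 46.5 CPM in Pdx1 siRNA IP RNA, against 45.5, 47.0 and 41.0 CPM in NT IP RNA. The groups overlapped at a single library on each side, and the log2 fold change of 0.18 (SE 0.07, adjusted p = 0.05167, edgeR) missed the threshold, with a 95% interval from 0.03 to 0.32. In total RNA it had 73.1, 76.6 and 70.8 CPM with Pdx1 siRNA, against 58.3, 61.8 and 60.4 CPM with NT siRNA, with no overlap. There it rose 1.22-fold (0.29, SE 0.07, adjusted p = 0.003908, edgeR), to 73.5 ± 2.92 CPM with Pdx1 siRNA, against 60.2 ± 1.76 CPM with NT siRNA (SD, n = 3 each). Without scaling the log2 fold change was −0.13 in IP RNA and 0.01 (adjusted p = 0.9126, edgeR) in total RNA, so its higher level was not seen on that scale.

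Because NT IP replicate 3 stands with the Pdx1 siRNA IP libraries at Rpl32l, the IP comparison was repeated with that split as a term. With that term the siRNA effect in IP RNA rests on NT IP replicate 3 as the only NT IP library, so effect sizes alone are given. The log2 fold changes were then −0.61 for Glp1r, 0.60 for Gipr, −0.72 for Ffar1 and 0.30 for Rapgef4, by edgeR. All had the same direction as without the term. For Rapgef4, NT IP replicate 3 was the lowest NT IP library, at 40.97 CPM.

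Across these genes 3 of the 4 changed in each fraction. In IP RNA 1 rose and 2 fell, and 59.7% of all genes tested changed there, 29.2% upward and 30.4% downward. In total RNA 2 rose and 1 fell, and 53.0% of all genes changed, 23.8% upward and 29.2% downward. Libraries of the 2 siRNAs did not overlap for 3 of the 4 genes in each fraction, against 64.9% of all genes in IP RNA and 58.8% in total RNA. With so many genes changed, 3 of 4 is a share that says little about these genes as a set. By size, 10.54% of all genes had a higher log2 fold change than Gipr in IP RNA, and 11.01% had a lower one than Ffar1. In bulk RNA, fewer cells expressing a gene and less of its RNA per cell cannot be told apart.

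**Figure D1:**
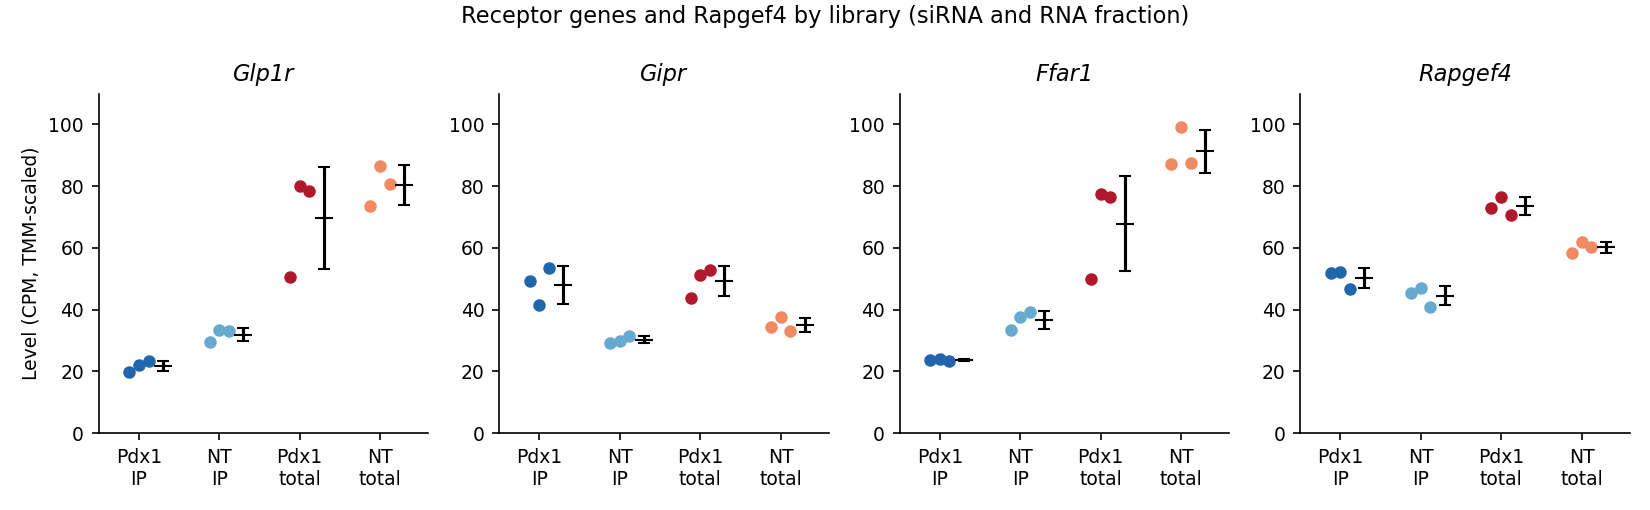
Level of each gene in CPM (TMM-scaled, linear axis from 0) in the 12 libraries, with points for libraries and, to their right, the mean and SD of the 3 libraries of a group. Gipr is higher with Pdx1 siRNA in both fractions, Ffar1 is lower in both, and Glp1r and Ffar1 are lower in IP than in total RNA under either siRNA.

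The siRNA effects in IP and in total RNA were then compared with each other. The difference of the effects, IP minus total, was −0.35 for Glp1r (SE 0.19, adjusted p = 0.3654), 0.17 for Gipr (SE 0.14, adjusted p = 0.557), −0.21 for Ffar1 (SE 0.18, adjusted p = 0.5953) and −0.11 for Rapgef4 (SE 0.10, adjusted p = 0.6258), on the log2 scale by edgeR's quasi-likelihood interaction test. It passed for 0 of the 4 genes, with 0 at an unadjusted p under 0.05, and 0 by the DESeq2 test. Over all genes 0.229% passed. The 95% interval for Glp1r, −0.73 to 0.03, was the widest of the 4. Without Pdx1 siRNA total RNA replicate 1, the library in which Glp1r and Ffar1 were low, the Glp1r difference was −0.53 and passed (adjusted p = 0.0356, edgeR), and the Ffar1 difference was −0.39 (adjusted p = 0.06573, edgeR). Whether the Glp1r effect differed between the fractions thus turned on a single library.

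Ratios between genes inside a library do not depend on scaling. For every count of Glp1r, Gipr had 2.47, 1.89 and 2.30 counts in Pdx1 siRNA IP RNA, against 0.996, 0.896 and 0.953 in NT IP RNA. In total RNA the ratio of Gipr to Glp1r counts was 0.865, 0.641 and 0.674 with Pdx1 siRNA, against 0.465, 0.434 and 0.41 with NT siRNA. In each fraction all Pdx1 siRNA ratios exceeded all NT ratios. The ratio was 2.33-fold higher with Pdx1 siRNA in IP RNA and 1.65-fold higher in total RNA. An exact two-sided permutation test gave p = 0.1 for each, the smallest that 3 against 3 libraries allow, or 0.114 adjusted over 16 ratio comparisons. The ratio of Gipr to Ffar1 was likewise 2.45-fold higher in IP RNA and 1.93-fold higher in total RNA (exact permutation p = 0.1 each).

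Ffar1 and Glp1r kept closer to one ratio. Ffar1 had 1.20, 1.09 and 1.00 counts for each count of Glp1r in Pdx1 siRNA IP RNA, against 1.14, 1.13 and 1.18 in NT IP RNA, and the groups overlapped (0.951-fold, exact permutation p = 0.5). In total RNA the ratio was 0.988, 0.967 and 0.975 with Pdx1 siRNA, against 1.18, 1.15 and 1.08 with NT siRNA. There the groups did not overlap, and the ratio was 0.859-fold that with NT siRNA (exact permutation p = 0.1). Pdx1 siRNA total RNA replicate 1, in which both genes were low, had nearly the same ratio as replicates 2 and 3.

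**Figure D2:**
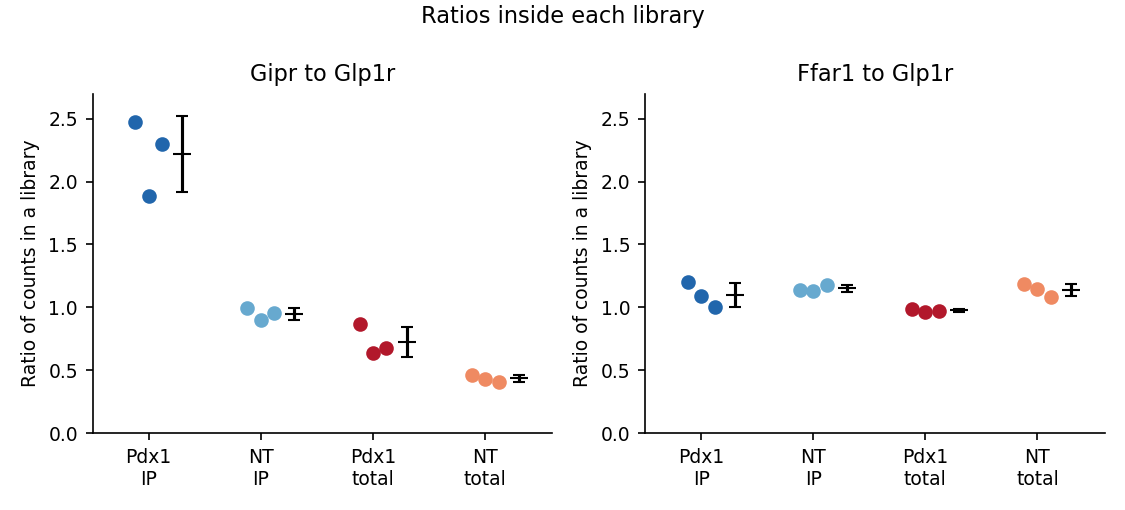
Ratio of counts of 2 genes within each library (linear axis from 0), with points for libraries and, to their right, the mean and SD of the 3 libraries of a group. The ratio of Gipr to Glp1r is highest in Pdx1 siRNA IP RNA and lowest in NT total RNA, while the ratio of Ffar1 to Glp1r lies between 0.967 and 1.20 in all 12 libraries.

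The second question was how the level of each RNA in IP RNA compared with that in total RNA. These levels are relative to other genes in a library, so the amount of an RNA recovered with ribosomes was not measured. Glp1r and Ffar1 were much lower in IP than in total RNA under both siRNAs, Rapgef4 was moderately lower, and Gipr did not pass the test under either. With Pdx1 siRNA, Glp1r was 3.21-fold lower (−1.68, SE 0.14, adjusted p = 4.553e-08, edgeR) and Ffar1 was 2.87-fold lower (−1.52, SE 0.13, adjusted p = 7.126e-08, edgeR). With NT siRNA, Glp1r was 2.52-fold lower in IP RNA (a log2 difference of −1.33, SE 0.14, edgeR adjusted p = 6.702e-07) and Ffar1 was 2.48-fold lower (−1.31, SE 0.13, adjusted p = 4.579e-07, edgeR). No IP library of either gene reached the lowest total RNA library of the same siRNA. Of all genes, 2.4% had a lower log2 fold change than Glp1r with Pdx1 siRNA and 3.23% with NT siRNA. For Ffar1 the shares were 3.46% with Pdx1 siRNA and 3.37% with NT siRNA. Both calls held in all 24 alternative settings, which are not all separate checks. Glp1r lay between −2.00 and −1.57 under Pdx1 siRNA and between −1.62 and −1.23 under NT siRNA. With Pdx1 siRNA, the split of the IP libraries seen at Rpl32l sets every IP library apart from every total RNA library. There the split and the fraction cannot be told apart, also where the 2 siRNAs are set side by side. With the split as a term, which rests on NT IP replicate 3, the median of the 4 genes was −1.02, against −1.03 without it.

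Rapgef4 fell 1.46-fold in IP against total RNA with Pdx1 siRNA (−0.55, SE 0.07, adjusted p = 6.803e-06, edgeR) and 1.35-fold with NT siRNA (−0.44, SE 0.07, adjusted p = 8.239e-05, edgeR). For Gipr the log2 fold change was −0.04 with Pdx1 siRNA (SE 0.10, adjusted p = 0.7154, edgeR), with a 95% interval from −0.23 to 0.15. With NT siRNA it was −0.21 (SE 0.10, adjusted p = 0.06515, edgeR), and its IP libraries all lay below its total RNA libraries, by a small margin. Without scaling the Gipr values were −0.36 (adjusted p = 0.0006976, edgeR) with Pdx1 siRNA and −0.50 (adjusted p = 5.319e-05, edgeR) with NT siRNA, on a scale whose median over all genes was −0.34 and −0.31. Gipr thus sat near the median gene on either scale with Pdx1 siRNA, while Glp1r and Ffar1 sat far below it.

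Of the 4 genes, 3 were lower and 0 higher in IP RNA under each siRNA. Among all genes 75.1% changed with Pdx1 siRNA, 36.3% upward and 38.7% downward, and 69.7% changed with NT siRNA, 33.8% upward and 35.9% downward. IP and total RNA libraries did not overlap for 3 of the 4 genes with Pdx1 siRNA and for 4 of 4 with NT siRNA, against 73.5% and 77.5% of all genes under those siRNAs. The ratio of Gipr to Glp1r was 3.06-fold higher in IP than in total RNA with Pdx1 siRNA and 2.18-fold higher with NT siRNA (exact permutation p = 0.1 each), with no overlap. The ratio of Ffar1 to Glp1r differed by 1.12-fold with Pdx1 siRNA (exact permutation p = 0.1) and by 1.01-fold with NT siRNA (exact permutation p = 0.9). The IP-against-total and siRNA comparisons share libraries, so their values are set side by side only.

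**Figure D3:**
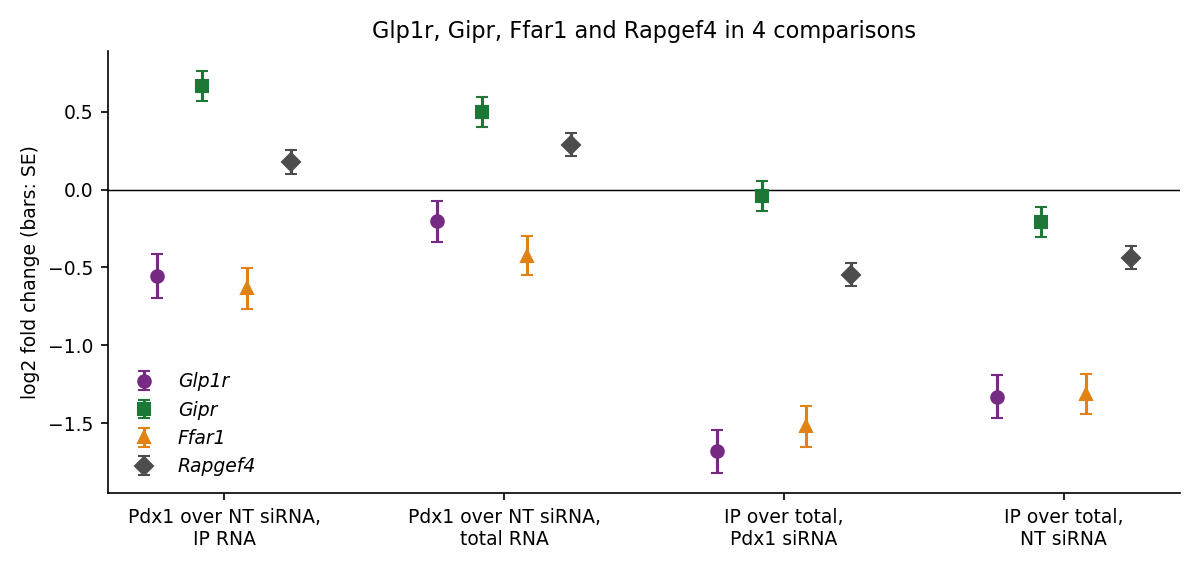
Log2 fold change with its SE for Glp1r, Gipr, Ffar1 and Rapgef4 in the siRNA comparisons in IP and total RNA and in IP against total RNA under each siRNA. Glp1r and Ffar1 lie below −1.3 in both comparisons of IP with total RNA, where Gipr lies at −0.04 and −0.21.

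Levels of different genes can be set side by side only per length. Per kilobase of exon inside the RefSeq span, Ffar1 stood first in every group, at 26.2 ± 0.352 CPM per kb in Pdx1 siRNA IP RNA, 40.7 ± 3.26 in NT IP RNA, 75.2 ± 17.2 in Pdx1 siRNA total RNA and 101 ± 7.64 in NT total RNA (SD, n = 3 each). Glp1r came next in 3 of the groups, at 21.6 ± 1.47 CPM per kb in NT IP RNA, 47.0 ± 11.1 in Pdx1 siRNA total RNA and 54.3 ± 4.35 in NT total RNA. In Pdx1 siRNA IP RNA, Glp1r with 14.7 ± 1.14 CPM per kb stood after Gipr with 16.8 ± 2.13, and these 2 did not differ beyond their spread. Gipr and Rapgef4 did not differ beyond their spread in NT IP RNA (10.6 ± 0.408 and 10.6 ± 0.749 CPM per kb) or in Pdx1 siRNA total RNA (17.3 ± 1.69 and 17.6 ± 0.699). The order rests on the gene model, since the RefSeq span holds 1480 of 5811 exon bases of the GENCODE transcript of Glp1r and 903 of 4175 for Ffar1. Per kilobase of the whole GENCODE transcript the order differed between groups. Pdx1 siRNA IP RNA had 16.8 CPM per kb of Gipr, 12.03 of Rapgef4, 5.67 of Ffar1 and 3.73 of Glp1r, and NT IP RNA had 10.6 of Rapgef4, 10.6 of Gipr, 8.80 of Ffar1 and 5.50 of Glp1r. Pdx1 siRNA total RNA had 17.6 CPM per kb of Rapgef4, 17.3 of Gipr, 16.3 of Ffar1 and 11.98 of Glp1r, and NT total RNA had 21.9 of Ffar1, 14.4 of Rapgef4, 13.8 of Glp1r and 12.2 of Gipr. On that length Ffar1 stood first in NT total RNA and in none of the other 3 groups. Which of these models was counted is not given. The length cancels when 1 gene is compared between groups, but the choice of exons counted can change the counts themselves. For Glp1r and Ffar1 this was not tested.

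Rapgef4 has 4 RefSeq transcripts in the tables. NM_019688 and NM_001204166 held 96.8% to 100% of the counts of NM_001204165 in every library, since reads in shared exons count for each. These isoforms cannot be told apart here. NM_001204167 held 3.39% to 4.55% of that count in Pdx1 siRNA IP RNA, against 3.99% to 5.61% in NT IP RNA. In total RNA it held 3.86% to 5.06% with Pdx1 siRNA, against 5.40% to 6.07% with NT siRNA. Its share was lower with Pdx1 siRNA in total RNA with no overlap, and overlapped in IP RNA. Taken alone it gave siRNA log2 fold changes of −0.03 in IP RNA (adjusted p = 0.8931) and −0.07 in total RNA (adjusted p = 0.6875) by edgeR.

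Over the 12 libraries the log2 levels of Glp1r and Ffar1 went together (Pearson r = 0.990), while Glp1r and Gipr did not (r = −0.01). These are descriptions over 4 groups that share scaling and fraction, with no test. The genes whose log2 CPM most resembled that of Glp1r among 10147 genes with at least 5 CPM included Bcor (r = 0.996) and Lmln (0.995). For Ffar1 they were Aqr (0.995), Bcor (0.994) and Cpsf1 (0.993), so Bcor stood in both lists. For Gipr they were Pitpnm1 (0.993), Ggt7 (0.986) and Gramd1a (0.986), and for Rapgef4 Sesn1 (0.990), Fndc3a (0.988) and Sowahc (0.988).

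The genes around these receptors were taken from lists of the pathway. Over all genes 59.7% changed with Pdx1 siRNA in IP RNA (29.2% upward, 30.4% downward). In total RNA 53.0% changed (23.8% upward, 29.2% downward). In IP against total RNA 75.1% changed with Pdx1 siRNA and 69.7% with NT siRNA. Without scaling 20% of changed genes were higher in IP RNA (49% with TMM) and 17.6% in total RNA (45% with TMM). A like move in a list is thus not particular to it. Among ligands and their processing, Gcg, the gene of proglucagon from which glucagon and GLP-1 are cut, rose 3.62-fold in IP RNA (5494 ± 389 CPM with Pdx1 siRNA, 1520 ± 23.8 CPM with NT siRNA) and 3.98-fold in total RNA. Pcsk2, the convertase that yields glucagon, rose 2.02-fold in IP RNA and 1.98-fold in total RNA. Pcsk1, the convertase that yields GLP-1, rose 1.45-fold in IP RNA and 1.51-fold in total RNA. Dpp4, the protease that inactivates incretins, rose 1.83-fold in IP RNA and 2.24-fold in total RNA. These 4 were all of the 7 listed genes with a row, and all 4 passed in both fractions. Gcg also belongs to the markers of other islet endocrine cells, of which 6 of 6 measured rose in both fractions (5 of 6 in IP RNA without scaling). Their summed level was 61430 to 77530 CPM in Pdx1 siRNA IP RNA, against 19709 to 23901 CPM in NT IP RNA, and 31497 to 35175 CPM in Pdx1 siRNA total RNA, against 10766 to 13035 CPM in NT total RNA. The part of these and of the beta-cell markers in the receptor results was not tested.

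Of 69 other G protein-coupled receptors listed for beta cells, 41 were measured. In IP RNA 25 rose and 6 fell with Pdx1 siRNA, at a median log2 fold change of 0.44, against −0.01 over all genes. In total RNA 22 rose and 7 fell, at a median of 0.31, against −0.04 over all genes. Without scaling the counts were 17 higher and 12 lower in each fraction, with medians of 0.13 in IP RNA and 0.03 in total RNA. With NT IP replicate 3 as the lone NT IP library, 21 rose and 6 fell in IP RNA. Gpr119, a Gs-coupled receptor for lipid amides, rose 6.24-fold in IP RNA (34.96 ± 2.51 CPM with Pdx1 siRNA, 5.60 ± 0.497 CPM with NT siRNA) and 6.02-fold in total RNA. Sstr1, a Gi-coupled somatostatin receptor, rose 7.36-fold in IP RNA and 9.21-fold in total RNA, at low levels of 12.4 CPM with Pdx1 siRNA and 1.70 CPM with NT siRNA in IP RNA. The orphan receptor genes Gprc5c (2.17-fold in IP RNA, 2.10-fold in total RNA) and Gprc5a (2.19-fold in total RNA) and the tryptophan receptor gene Gpr142 (1.80-fold in IP RNA) rose as well.

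Ffar2 and Ffar3, the receptors for short-chain fatty acids, were singled out as relatives of Ffar1 after their values were seen. Ffar2 rose in IP RNA (log2 fold change 1.10, SE 0.10, adjusted p = 2.168e-07, edgeR) and in total RNA (0.88, SE 0.10, adjusted p = 2.995e-06), opposite to Ffar1. Ffar3 had −0.18 in IP RNA (adjusted p = 0.05801, edgeR) and fell by 0.21 on the log2 scale in total RNA (adjusted p = 0.03388). Without scaling Ffar2 still rose (0.78 in IP RNA, 0.60 in total RNA). Ffar3 then fell in IP RNA (−0.50, adjusted p = 2.694e-05, edgeR) and in total RNA (−0.49, adjusted p = 3.58e-05, edgeR). Ffar4, also measured, had 0.0058 in IP RNA (adjusted p = 0.9739, edgeR) and −0.24 in total RNA (adjusted p = 0.1442, edgeR) without scaling. On that scale the median of all genes was −0.32 in each fraction, so Ffar4 lay above the median gene in both. Its values with scaling are not reported here. In IP against total RNA with NT siRNA, Ffar2 at 0.40 (adjusted p = 0.002081, edgeR) and Ffar3 at 0.34 (adjusted p = 0.001225) were higher in IP RNA, where Ffar1 was lower. In IP against total RNA the whole receptor list had a median of −0.01 with Pdx1 siRNA (11 higher, 12 lower) and of −0.06 with NT siRNA (8 higher, 13 lower).

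Among 26 of 32 measured genes of G proteins and adenylyl cyclases, 9 rose and 9 fell in IP RNA, and 6 rose and 8 fell in total RNA. Without scaling 4 rose and 14 fell in IP RNA, and 2 rose and 15 fell in total RNA. Gnas, which encodes the Gs alpha subunit that these class B receptors use, rose 2.19-fold in IP RNA (14926 ± 633 CPM with Pdx1 siRNA, 6825 ± 71.0 CPM with NT siRNA) and 1.92-fold in total RNA. Of the adenylyl cyclases, which make cAMP, Adcy6 rose 1.98-fold in IP RNA and 1.88-fold in total RNA, and Adcy7 fell 2.01-fold in IP RNA and 1.91-fold in total RNA. Ric8a, a chaperone of G alpha subunits, rose 1.49-fold in IP RNA, and Gnai3, an inhibitory alpha subunit gene, fell 1.44-fold in total RNA.

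Of 39 of 43 measured genes of protein kinase A, Epac partners and phosphodiesterases, 12 rose and 10 fell in IP RNA, and 14 rose and 7 fell in total RNA. Without scaling, where the balance moved downward over all genes, 3 were higher and 20 lower in IP RNA, and 5 higher and 17 lower in total RNA. Prkar2a, a regulatory subunit of protein kinase A, fell 1.98-fold in IP RNA and 1.85-fold in total RNA. Pde10a, a phosphodiesterase that breaks down cAMP and cGMP, rose 1.59-fold in IP RNA and 1.60-fold in total RNA. Pkib, an inhibitor of protein kinase A, rose 1.82-fold and Akap8, an anchoring protein of the kinase, fell 1.43-fold in IP RNA. In total RNA the catalytic subunit gene Prkacb rose 1.44-fold and the phosphodiesterase gene Pde7a fell 1.43-fold. In IP against total RNA, with Pdx1 siRNA 6 genes of the list were higher and 24 lower, at a median of −0.62, and with NT siRNA 3 were higher and 25 lower, at a median of −0.53, against −0.02 over all genes under each siRNA.

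In the Gq arm, through which Ffar1 signals, 24 of 27 genes were measured. In IP RNA 8 rose and 4 fell, and in total RNA 10 rose and 3 fell. Without scaling, as over all genes, the balance moved downward, with 4 higher and 11 lower in IP RNA and 5 higher and 9 lower in total RNA. Gna14, an alpha subunit of the Gq class, rose 3.83-fold in IP RNA and 3.33-fold in total RNA, at levels of 2.61 CPM with Pdx1 siRNA and 0.681 CPM with NT siRNA in IP RNA. The inositol trisphosphate receptor genes Itpr1 and Itpr2 rose 2.09-fold and 1.69-fold in total RNA. The diacylglycerol kinase gene Dgkb rose 2.33-fold in IP RNA and 1.97-fold in total RNA, Dgkz rose 1.40-fold in IP RNA (not past the test without scaling, adjusted p = 0.07426, edgeR), and Prkd1, protein kinase D1, which acts downstream of diacylglycerol, fell 1.51-fold in IP RNA. In IP against total RNA 3 of these genes were higher and 15 lower with Pdx1 siRNA, at a median of −0.45, and 2 were higher and 14 lower with NT siRNA, at a median of −0.35.

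Of 23 receptor regulators 21 were measured, with 8 higher and 7 lower in IP RNA and 7 higher and 7 lower in total RNA. Without scaling 5 were higher and 12 lower in IP RNA, and 4 higher and 11 lower in total RNA. Gprasp1 and Gprasp2, sorting proteins of internalised receptors, rose 2.12-fold and 2.00-fold in IP RNA and 2.41-fold and 2.19-fold in total RNA. Rgs4, which speeds GTP hydrolysis on Gi and Gq alpha subunits, rose 1.89-fold in IP RNA and 1.97-fold in total RNA, while Rgs3, of the same family, fell 2.48-fold in IP RNA and 1.90-fold in total RNA. All 13 genes of the CREB arm, the transcriptional end of the cAMP pathway, were measured, with 4 higher and 3 lower in IP RNA and 3 higher and 4 lower in total RNA. Without scaling 2 were higher and 8 lower in IP RNA, and 2 higher and 6 lower in total RNA. The median log2 fold change of the arm in IP RNA was −0.01. With the split of the IP libraries as a term, which rests on NT IP replicate 3 alone, it was −0.08. Sik1, a cAMP-induced kinase that restrains CREB coactivators, rose 2.04-fold in IP RNA and 2.10-fold in total RNA, and Crem, a cAMP-responsive modulator, rose 2.14-fold in IP RNA and 1.83-fold in total RNA. Atf1 fell 1.23-fold in IP RNA and 1.32-fold in total RNA. Of the CREB coactivator genes, Crtc1 rose 1.27-fold in IP RNA (not past the test without scaling, adjusted p = 0.749, edgeR), and Crtc2 fell 1.29-fold in total RNA. In IP against total RNA 1 gene of the arm was higher and 10 were lower with NT siRNA, at a median of −0.49.

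**Figure D4:**
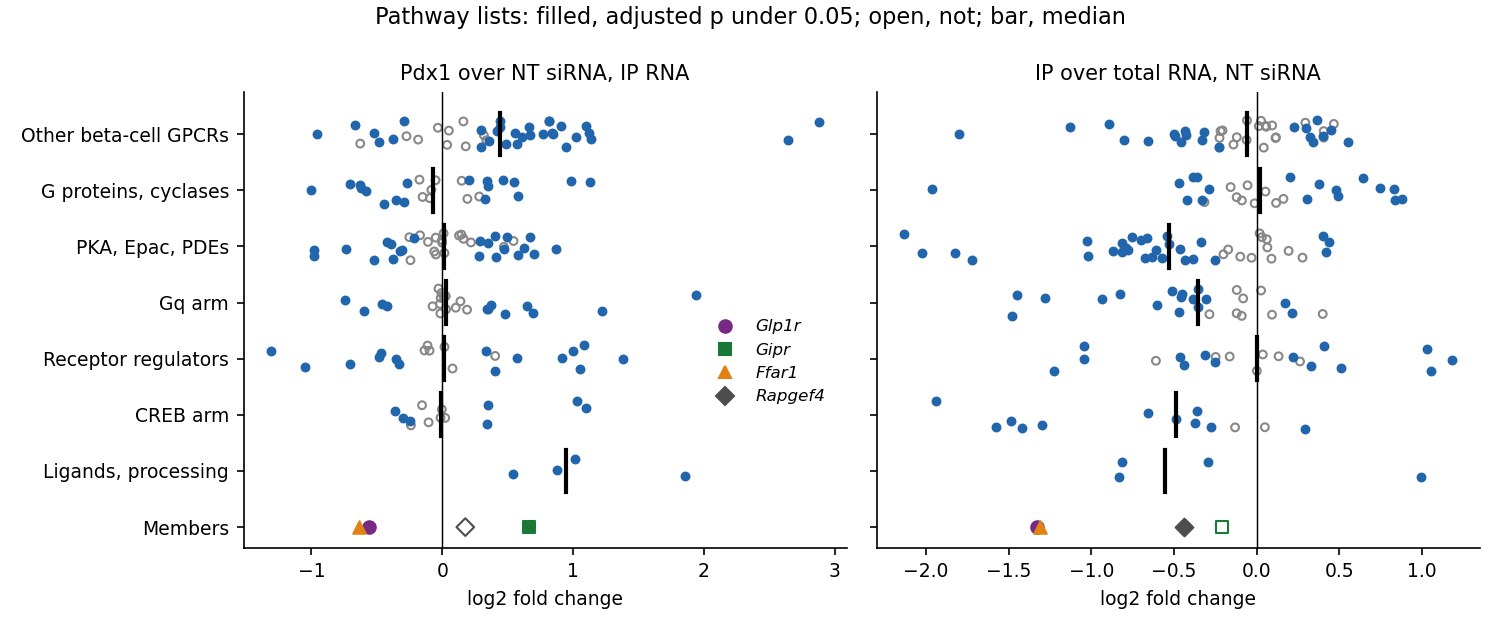
Log2 fold change of each measured gene of the pathway lists, and of Glp1r, Gipr, Ffar1 and Rapgef4 in the bottom row, for Pdx1 over NT siRNA in IP RNA (left) and IP over total RNA with NT siRNA (right). Filled points passed the edgeR test, open points did not, bars are medians; on the right the lists of protein kinase A, Epac and phosphodiesterases, of the Gq arm and of the CREB arm have medians of −0.53, −0.35 and −0.49.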

How the data were processed

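The authors deposited 1 table per library of raw counts, whole-number reads per RefSeq transcript with no normalization. TopHat2, featureCounts and the build mm10 are named, without versions, in the submitters' processing notes; which kit, strand setting and annotation version were used is not given there. The tables share 17133 transcripts, of which 16838 were matched to a symbol through a RefSeq table of GRCm38.p6. The other 295 held 0.577% to 0.834% of a library's counts and were left out. Each gene was its transcript with the highest total. The test was the quasi-likelihood test of edgeR 4.0.16 (R 4.3.3) on all 12 libraries at once, with 1 mean for each group, TMM factors and edgeR's default expression filter, which removed 0 of 12643 genes. A gene counted as changed at a Benjamini-Hochberg adjusted p under 0.05, adjusted over the whole table, and SEs were derived from F statistics. Alternatives were RLE, upper-quartile and no scaling, DESeq2 1.42.0, other filters, a replicate block, removal of Ins1 and Ins2, a term for the split of the IP libraries (NT IP replicate 3 with the Pdx1 siRNA ones, inferred from counts and given by no label), other libraries or transcripts, and each library left out. Copies were sought with minimap2 2.31 in GENCODE transcripts of GRCm38. The genes and the pathway lists were chosen with earlier results of these data known. From each list up to 4 genes with the smallest p per siRNA comparison, among those past the test with at least 1 CPM, were named, and 3 genes per receptor or effector gene for likeness, of which 1 is not reported here. Counts are not corrected for PCR duplicates, so counting error is a lower limit.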

Additional observations from a re-analysis of the deposited data

How the results depend on the processing

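Of 476 values of the 4 genes under alternative settings, 447 kept direction and side of the threshold, 19 passed where the reported value did not, 2 no longer passed and 8 changed sign. The sign changes were all of values that did not pass under that setting. For Rapgef4 they were the siRNA effect in IP RNA without scaling (−0.13), the interaction with the split of the IP libraries as a term (0.0076), with NT IP replicate 3 as the lone NT IP library (0.0022) and with the lowest-total transcript (0.0347), and the siRNA effects with that transcript (−0.0305 in IP RNA, −0.0652 in total RNA). For Gipr they were IP against total RNA with Pdx1 siRNA without total RNA replicate 3 (0.0121) and without IP replicate 2 (0.0586), within a range of −0.12 to 0.0586 over the libraries left out. In only 11 of 24 settings did the Rapgef4 effect in IP RNA keep both its direction and its side of the threshold. It passed in several others, such as DESeq2 (adjusted p = 0.03). With that split term, which rests on NT IP replicate 3 as the only NT IP library, it was 0.30. The Glp1r, Gipr and Ffar1 effects in IP RNA passed in all 24 settings, but these are not all separate checks. Leaving out the expression filter repeated the main fit, since the filter removed 0 genes. The lowest-total transcript is the same row for these receptor genes. The split term and the lone NT IP library both set the Pdx1 siRNA IP libraries against NT IP replicate 3. The same holds for the count of values that kept direction and side.

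The count of genes changed in IP RNA was 7542, and 4900 with NT IP replicate 3 as the lone NT IP library, which is assumed to vary like the others. The interaction count, 29 genes (22 higher, 7 lower), was 42 with RLE (22 higher, 20 lower), 52 with upper-quartile scaling (24 higher, 28 lower), 11 without scaling, 327 with DESeq2 (142 higher, 185 lower), 54 without Ins1 and Ins2 (24 higher, 30 lower), 5 with the split term, 5 with the lone NT IP library, and 4 to 571 with single libraries left out, of which leaving out NT IP replicate 3 gave 571 and Pdx1 siRNA total RNA replicate 1 gave 383. Of the 4 genes, 0 to 1 passed the interaction test with a library left out. Without scaling, 17.6% of changed genes were higher in total RNA after Pdx1 siRNA (45% with TMM), 20% in IP RNA (49%), 27.3% in IP against total RNA with Pdx1 siRNA (48.4%) and 23.3% with NT siRNA (48.5%). The causes were not tested.

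The labels give same-numbered libraries no shared origin. Their deviations correlated at −0.05 to 0.51, and not every library correlated best with its own number, so the numbers were not taken as pairs. With the replicate block 373 genes passed the interaction test, and Rapgef4 passed in IP RNA (0.18, adjusted p = 0.02105, edgeR). A fit on only the libraries compared gives the interaction no value of its own. Each of the 4 genes had at least 474 counts in every library, and each group had 3 libraries. Of the 28 named pathway genes per siRNA comparison, 28 kept their calls without scaling in total RNA and 26 in IP RNA.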
